A study of Mus musculus with 9 samples.

Results

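The comparison described here sets the 3 libraries labelled Tcf4 knockout (KO) against the 3 labelled Tcf4 heterozygote (Het), from dorsal telencephalon of newborn mice of the strain B6:129SF2/J. The members are all genes with enough counts in the deposited table, 15271 of 41128. The contrast asks which of them differ between groups that, by their labels, differ in the second Tcf4 allele. The groups also differed at Hprt, as given below. By their labels all 6 carry at least 1 altered Tcf4 allele, and 3 wild-type (WT) libraries of the same tissue, age and strain make up the rest of the series and are used here to estimate the spread and as a reference level. The kind of mutation, the promoter or exon it touches and whether a library came from 1 pup, 1 litter or a pool are not stated in the labels, so the p-values reflect only how much these libraries vary, and that variation may be technical.

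The Tcf4 product is an E protein, one of the broadly expressed basic helix-loop-helix (bHLH) factors. E proteins bind DNA as dimers, often with tissue-specific proneural bHLH partners, at the E-box, a 6-base element that starts with CA and ends with TG. Id proteins lack the DNA-binding region, pair with E proteins and keep them off DNA. In people, loss of 1 copy of the gene causes Pitt-Hopkins syndrome, a disorder with intellectual disability. The dorsal telencephalon gives rise to the cerebral cortex and hippocampus. In the newborn it holds young excitatory projection neurons, remaining progenitors, immigrant interneurons, glia and vessels.

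Library totals ran from 24008445 to 29398411 counts in Het and from 26355671 to 29445788 in KO. The tissue label matched its defining genes: the dorsal forebrain factor Emx1 stood at 59.1 ± 4.60 CPM in KO and 53.04 ± 4.04 CPM in Het (SD, n = 3 per group here and throughout) and the cortical neuron factor Neurod6 at 687 ± 50.2 CPM in KO and 626 ± 69.0 CPM in Het, whereas the hindbrain and spinal cord gene Hoxb4 had 0 counts in all 6 libraries. KO replicate 3 had 2730 counts of the X-inactivation transcript Xist and 2 of the Y-linked Ddx3y, while the other 5 libraries had at most 3 of Xist and at least 1040 of Ddx3y. Sex is therefore not balanced, and without KO replicate 3 the total of calls given below was 2319. On chromosome X, 65 of 545 tested genes were called higher in KO and 26 lower, or 16.7%, the share called over all tested genes. The median log2 fold change there was 0.053, against 0.004 over all tested genes. The part of sex in these values was not tested. List counts that moved by over 1.5 times without KO replicate 3 or any other library stand at the end of each paragraph. The WT libraries, with totals from 22291940 to 23813314 counts, stood apart from the other 6 in Emx1, Neurod6 and markers of other cells. Emx1 had 804 to 968 counts in WT and 1373 to 1821 in KO and Het. Neurod6 had 7395 to 9682 counts in WT and 16063 to 22366 in KO and Het. The ventral telencephalon factor Nkx2-1 had 135 to 251 counts in WT and 17 to 30 in KO and Het, a striatal gene list summed to 2115 to 2241 CPM in WT against 1107 to 1256 CPM, and an astrocyte list to 4496 to 4683 CPM against 2832 to 3035 CPM. The part of this in any WT level below was not tested.

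Tcf4 itself was counted at 822, 652 and 719 CPM in the Het libraries and 638, 633 and 611 CPM in the KO libraries, against 712, 728 and 584 CPM in WT. The KO and Het libraries did not overlap, as was so for 16.3% of all tested genes with KO below and 17.1% with KO above, but the difference (log2 fold change -0.22, SE 0.09, adjusted p = 0.13) did not pass the threshold of 0.05. Since no label says which part of the gene was altered, a total over all of it does not check the genotypes, which are taken from the labels. The difference did pass when only the 6 KO and Het libraries were fitted (adjusted p = 0.043). It also passed when Het replicate 2 was left out (adjusted p = 0.041) or WT replicate 3 was (adjusted p = 0.043). With DESeq2 the adjusted p was 0.056.

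Other members of the E protein network did differ. Id2, an inhibitor of E proteins, was counted at 142, 167 and 164 CPM in the Het libraries and 40.1, 37.4 and 36.6 CPM in the KO libraries. The fall was 4.14-fold (log2 fold change -2.05, SE 0.11, adjusted p = 8.4e-07). The groups did not overlap, which was a condition for naming the largest falls and held with KO below for 16.3% of all tested genes. WT libraries had 87.8, 118 and 113 CPM, between the other genotypes. Id3 was lower as well (-0.57, SE 0.11), whereas Id4 was called higher (0.34, SE 0.09), a call lost without KO replicate 1, KO replicate 2 or Het replicate 3 (adjusted p from 0.054 to 0.056). Id1 had a value of 0.41 that did not pass (adjusted p = 0.28), except without KO replicate 3 (0.61, adjusted p = 0.024). The E protein gene Tcf12 was higher in KO (log2 fold change 0.32, SE 0.05, adjusted p = 3.8e-04). Tcf3, the remaining E protein gene, was called higher at 0.25 (adjusted p = 0.012), a call lost without Het replicate 2 (adjusted p = 0.094) or KO replicate 3 (adjusted p = 0.062).

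In all, 2556 of 15271 genes were called, which is 16.7% of those tested. KO was higher for 1267 genes (8.3%) and lower for 1289 (8.44%), and the median change of a called gene was 1.31-fold. Changes of at least 1.5-fold were more often falls, 432 (2.83%) against 303 rises (1.98%), together 4.81% of tested genes, and so were changes of at least 2-fold, 172 (1.13%) against 94 (0.616%). The median log2 fold change over all tested genes was 0.004. Counts of called list members below are to be read beside the 8.3% higher and 8.44% lower. Without KO replicate 1 the number of calls was 1467 and without KO replicate 2 it was 1432, and 0 of the 2556 genes were called in the opposite direction in any fit run here.

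**Figure D1:**
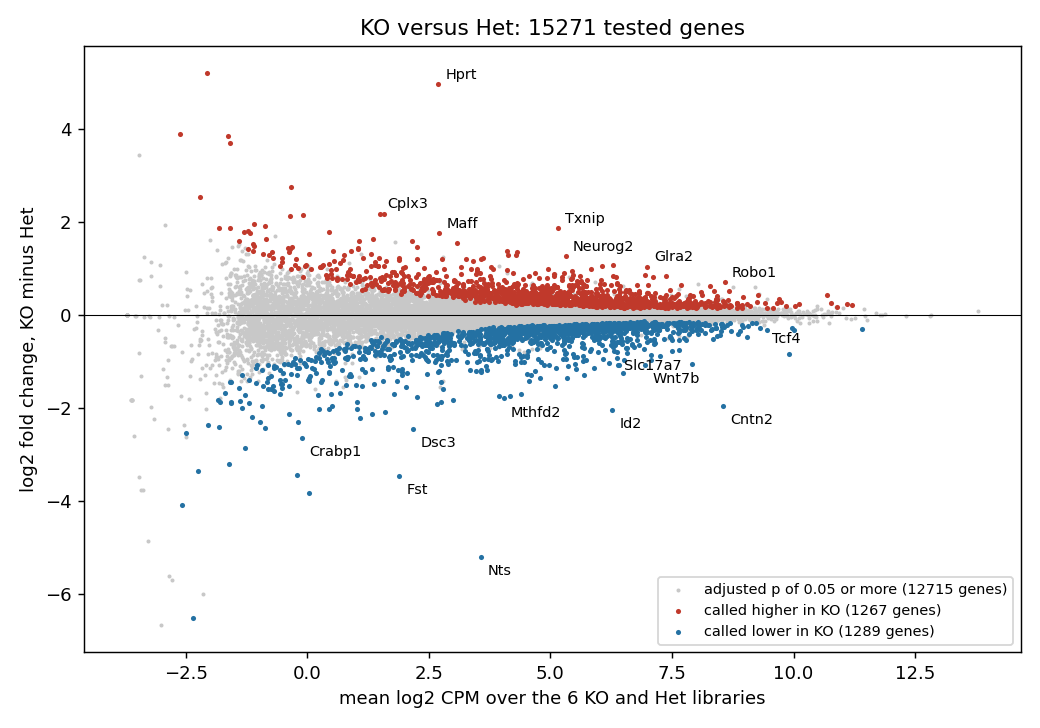
Mean log2 CPM over the 6 KO and Het libraries (x axis) against the log2 fold change of KO minus Het (y axis), 1 point per tested gene, red for the 1267 genes called higher in KO, blue for the 1289 called lower and grey for the rest. Hprt lies at 4.96 and Nts at -5.20, far from the other labelled genes, while Tcf4 lies at -0.22.

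The largest falls included genes of secreted and cell-surface proteins. Where the mean log2 CPM reached 1 and the groups did not overlap, Nts, the precursor of the neuropeptide neurotensin, fell the most. Nts was counted at 69.6, 70.9 and 85.5 CPM in the Het libraries and 3.63, 1.37 and 1.13 CPM in the KO libraries, a fall of 36.8-fold (log2 fold change -5.20, SE 0.35, adjusted p = 1.7e-04). Every Het library exceeded every KO library by far, and WT libraries were at 63.4, 52.7 and 55.9 CPM. KO replicate 1 had the highest KO level, and without it the value was -5.92. The gene of the neurotensin receptor Ntsr1, known as a marker of corticothalamic neurons, was also lower (-0.97, SE 0.08), at 76.9, 73.7 and 71.8 CPM in the Het libraries and 34.97, 40.5 and 38.3 CPM in the KO libraries.

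Fst encodes follistatin, a secreted protein that binds and blocks activin. Its counts were 12.99, 11.9 and 10.9 CPM in the Het libraries and 1.05, 0.914 and 1.26 CPM in the KO libraries, a fall of 11.01-fold (log2 fold change -3.46, SE 0.17, adjusted p = 1.3e-09), against 6.05, 6.77 and 8.44 CPM in WT. Cntn2, a contactin found on axons, had the smallest p of all genes. The libraries held 698, 714 and 792 CPM in the Het libraries and 188, 196 and 184 CPM in the KO libraries, without overlap, a 3.89-fold fall (log2 fold change -1.96, SE 0.06, adjusted p = 1.1e-12), and the WT libraries held 533, 553 and 528 CPM. Ntf3, the neurotrophin-3 gene, was counted at 11.7, 13.5 and 11.4 CPM in the Het libraries and 3.42, 3.08 and 3.15 CPM in the KO libraries (-1.92, SE 0.13). Kcna1, a voltage-gated potassium channel subunit of axons, stood at 12.8, 12.01 and 13.4 CPM in the Het libraries and 3.42, 4.08 and 3.06 CPM in the KO libraries (-1.86, SE 0.14). For Nts, Fst, Cntn2, Ntf3 and Kcna1 the Het libraries had a mean at or above the WT mean, and KO was the low genotype.

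The other genes with the largest falls were Dsc3, a desmosomal cadherin (-2.44, SE 0.19), Dusp5, a phosphatase that acts on ERK kinases (-2.21, SE 0.22), Ephx4, of the epoxide hydrolase family (-2.13, SE 0.17), Cbln4, a secreted synapse organiser (-2.09, SE 0.21), Rgs9bp, an anchor of a G protein regulator (-2.01, SE 0.26), the extracellular matrix gene Emilin2 (-1.86, SE 0.24) and Cntnap3, a relative of the neurexins (-1.77, SE 0.17). For Dsc3 the mean was 10.43 CPM in Het, 1.91 CPM in KO and 3.31 CPM in WT, so that Het was the high genotype. WT means of Dusp5, Ephx4, Cbln4, Rgs9bp, Emilin2 and Cntnap3 were 5.05, 5.45, 8.63, 3.45, 3.86 and 16.5 CPM. The Het means of the same genes were 4.455, 5.07, 6.22, 3.95, 3.75 and 8.80 CPM. KO levels of Dusp5, Ephx4, Rgs9bp and Emilin2 were close to 1 CPM, at 0.965, 1.15, 0.971 and 1.03 CPM. Mthfd2, a mitochondrial folate enzyme, was counted at 34.4, 24.3 and 33.96 CPM in the Het libraries and 7.78, 7.81 and 11.1 CPM in the KO libraries (log2 fold change -1.79, SE 0.17, adjusted p = 4.1e-05), with 12.5, 14.8 and 14.8 CPM in WT, so that Het was the high genotype. Chac1, a glutathione-degrading enzyme, was called lower (-1.83, adjusted p = 0.043), with 28.2, 9.07 and 10.96 CPM in the Het libraries and 3.94, 4.42 and 5.11 CPM in the KO libraries. Het replicate 1 stood apart there, and without it the value was -1.16 (adjusted p = 9.5e-05). The call was also kept without Het replicate 2 or Het replicate 3 (adjusted p = 0.017 and 0.044) and with DESeq2 (adjusted p = 5.2e-04). The Chac1 call was lost without any 1 of the KO or WT libraries (adjusted p from 0.069 to 0.15) and when only the 6 KO and Het libraries were fitted (adjusted p = 0.11).

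Hprt, the X-linked gene of a purine salvage enzyme, had the largest rise under the same rule. It was counted at 1.07, 0.711 and 1.66 CPM in the Het libraries and 36.1, 35.1 and 36.6 CPM in the KO libraries, a difference of 31.2-fold (log2 fold change 4.96, SE 0.15, adjusted p = 2.0e-11). WT libraries had 41.5, 42.9 and 42.6 CPM, so the Het libraries were the ones that stood apart, in 3 of 3 cases. The labels do not mention Hprt. As this difference is shared by all Het libraries, its part in the other KO and Het differences was not tested. Hprt does not overlap another gene and shares 0% of its 31-base words with other genes. Within 20 Mb of Hprt, 12 of 111 other tested genes were higher in KO and 9 lower, or 18.9% called, beside 16.7% of all genes. Within 20 Mb of Tcf4, on chromosome 18, 11 of 175 were higher and 19 lower, or 17.1%.

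Cplx3, a complexin of the presynaptic release machinery and a subplate marker, was counted at 1.11, 1.08 and 1.76 CPM in the Het libraries and 5.44, 4.61 and 7.90 CPM in the KO libraries, a 4.52-fold rise (log2 fold change 2.18, SE 0.25, adjusted p = 3.1e-05). The WT libraries held 2.755, 4.276 and 4.045 CPM of Cplx3, above every Het and below every KO library. The adhesion G protein-coupled receptor gene Adgrg6 stood at 1.44, 1.18 and 1.49 CPM in the Het libraries and 6.55, 7.01 and 4.95 CPM in the KO libraries (2.17, SE 0.19). Txnip, an inhibitor of thioredoxin whose expression responds to glucose, was counted at 13.5, 23.6 and 19.9 CPM in the Het libraries and 60.8, 59.8 and 88.6 CPM in the KO libraries (log2 fold change 1.87, SE 0.26, adjusted p = 0.0045), with 25.9, 18.97 and 26.4 CPM in WT. Maff, a small Maf transcription factor, was counted at 4.18, 2.94 and 3.53 CPM in the Het libraries and 14.1, 12.3 and 9.76 CPM in the KO libraries (1.76, SE 0.18). That the groups do not overlap was a condition for naming these genes.

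Further large rises were seen in Col8a1, a short-chain collagen (1.63, SE 0.19), Tmem255a (1.58, SE 0.30), Ndst3, a heparan sulfate modifying enzyme (1.54, SE 0.11), Deptor, an inhibitor of mTOR kinase (1.47, SE 0.16), the ephrin receptor Epha2 (1.44, SE 0.25), Trh, the thyrotropin-releasing hormone precursor (1.42, SE 0.24), Fam135b (1.38, SE 0.11), Kirrel, an immunoglobulin adhesion molecule (1.35, SE 0.09), the serotonin receptor Htr1b (1.31, SE 0.17) and Abca8a, an ABC transporter (1.29, SE 0.09). Ndst3 and Abca8a were tight within groups, with 5.17, 4.74 and 4.84 CPM in the Het libraries and 14.2, 14.2 and 14.4 CPM in the KO libraries for Ndst3 and 11.1, 11.7 and 10.7 CPM in the Het libraries and 27.4, 27.99 and 26.5 CPM in the KO libraries for Abca8a. Htr1b was highest in WT, at 6.82, 7.84 and 8.44 CPM. WT means of Col8a1 and Tmem255a were 2.77 and 5.11 CPM, between Het (1.41 and 2.56 CPM) and KO (4.34 and 7.74 CPM). Those of Ndst3, Epha2 and Trh also lay between Het and KO, and those of Deptor, Fam135b, Kirrel and Abca8a lay below Het. Limma on log2(FPKM + 1), a scale that compresses low levels, kept every direction named here and gave 3.95 for Hprt, 1.07 for Cplx3, 0.68 for Adgrg6, 0.53 for Col8a1, 0.76 for Deptor, 0.82 for Epha2, 0.83 for Trh, 0.58 for Htr1b, -2.08 for Fst, -1.14 for Dsc3, -1.03 for Dusp5, -1.07 for Cbln4, -0.49 for Rgs9bp, -0.64 for Emilin2, -0.81 for Kcna1 and -0.88 for Cntnap3.

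**Figure D2:**
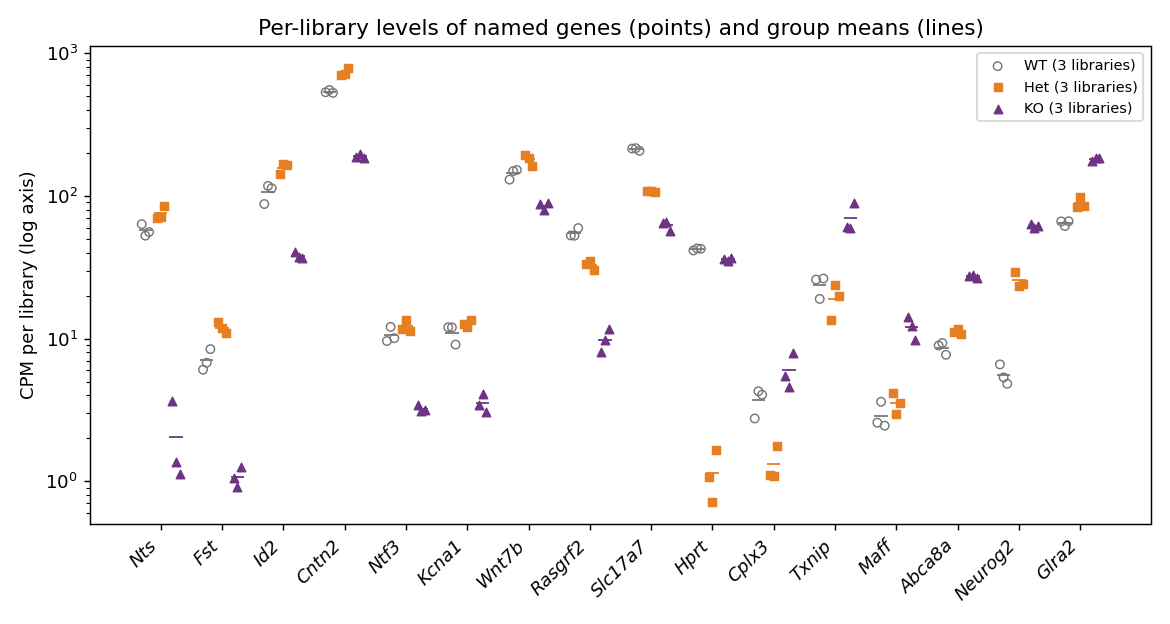
CPM on a log axis in each of the 3 WT (open circles), 3 Het (squares) and 3 KO libraries (triangles) for 16 named genes, with group means as lines. For the 9 genes on the left every KO library lies below every Het library, for example 189 against 735 CPM on average for Cntn2, and for the 7 on the right every KO library lies above. No overlap was a condition for naming the largest folds, and over all tested genes KO lay below in 16.3% and above in 17.1%. Hprt is low in Het alone.

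Since TCF4 binds E-boxes, bases before the start are shown for genes with the largest rises and falls, 3 each being taken from the RefSeq promoter table (build GRCm38.p6), which gives 250 bases before the RefSeq start. Fst and Dsc3 are not shown. Where GENCODE M21 places a start further upstream, only the bases before that start are shown, which left 182 bases for Nts and 214 for Dusp5. The windows of Adgrg6 and Ephx4 lie wholly inside the gene in GENCODE and are not shown. Capitals mark each CANNTG, which reads the same on both strands. The windows are chrX:52987828-52988077 (Hprt, plus strand), chr9:57606282-57606531 (Cplx3, minus strand), chr10:102490487-102490668 (Nts, minus strand) and chr19:53528895-53529108 (Dusp5, plus strand).
Hprt: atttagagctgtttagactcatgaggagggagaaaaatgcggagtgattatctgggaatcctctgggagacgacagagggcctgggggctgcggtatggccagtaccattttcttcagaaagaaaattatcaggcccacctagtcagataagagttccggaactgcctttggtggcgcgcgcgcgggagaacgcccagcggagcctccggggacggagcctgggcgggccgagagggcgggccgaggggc
Cplx3: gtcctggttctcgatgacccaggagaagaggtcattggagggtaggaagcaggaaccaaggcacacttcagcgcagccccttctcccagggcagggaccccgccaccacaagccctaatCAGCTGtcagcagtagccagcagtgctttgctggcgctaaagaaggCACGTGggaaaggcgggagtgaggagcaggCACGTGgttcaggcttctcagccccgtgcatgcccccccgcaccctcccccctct
Nts: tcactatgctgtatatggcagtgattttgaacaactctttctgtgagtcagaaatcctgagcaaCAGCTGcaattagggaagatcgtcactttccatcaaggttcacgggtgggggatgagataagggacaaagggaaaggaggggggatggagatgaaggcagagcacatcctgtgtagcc
Dusp5: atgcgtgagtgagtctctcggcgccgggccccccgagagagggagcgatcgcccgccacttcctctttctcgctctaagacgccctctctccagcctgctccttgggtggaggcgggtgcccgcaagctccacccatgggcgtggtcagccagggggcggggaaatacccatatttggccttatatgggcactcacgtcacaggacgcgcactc
The Cplx3 window held 3 such elements and that of Nts 1, and those of Hprt and Dusp5 none. Shares over genes are for the full 250 bases before the RefSeq start. Over all 27018 genes with such a promoter, 66.1% held at least 1 CANNTG and 17.1% at least 1 CAGGTG or its reverse complement CACCTG. The shares were 57.1% and 15.4% among 11501 tested genes. Among genes changed at least 1.5-fold they were 64.5% and 20.1% for 313 that fell and 56.7% and 13.9% for 238 that rose. These windows leave out distal elements, and a match is only a match of letters.

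Genes of projection neurons changed in both directions. Upper-layer and callosal genes, which mark neurons that connect the hemispheres, fell in 13 of 29 cases (44.8%) and rose in 3, with a median of -0.16. Rasgrf2, an upper-layer exchange factor for Ras and Rac proteins, was counted at 33.4, 34.7 and 30.2 CPM in the Het libraries and 8.05, 9.75 and 11.8 CPM in the KO libraries (log2 fold change -1.73, SE 0.11, adjusted p = 7.3e-08), and WT stood higher still at 52.8, 52.6 and 59.5 CPM. Plxnd1, a semaphorin receptor, was at 118, 129 and 138 CPM in the Het libraries and 71.3, 62.9 and 61.8 CPM in the KO libraries (-0.97, SE 0.08). Dkk3, a secreted Dickkopf-related protein, fell from a mean of 139 to 58.7 CPM (-1.25, SE 0.07), Lpl, lipoprotein lipase, from 65.04 to 25.4 CPM (-1.35, SE 0.17) and the adhesion molecule Nectin3 from 50.4 to 29.7 CPM (-0.76, SE 0.09). The POU factors Pou3f2 (0.81, adjusted p = 0.015) and Pou3f3 (0.44, adjusted p = 0.0022) were called higher and Pou3f1 lower (-0.33, adjusted p = 0.0048), and the Pou3f2 call was lost without KO replicate 1 (adjusted p = 0.052) or KO replicate 2 (adjusted p = 0.051). The upper-layer factor Cux2 (-0.07, adjusted p = 0.47) did not pass the test. In bulk tissue, fewer cells of a type and less RNA per cell cannot be told apart. Upper-layer and callosal projection neuron genes called higher numbered 1 without KO replicate 2.

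Deep-layer genes were split, with 7 of 30 higher and 7 lower (median -0.03). The retinoic acid degrading enzyme Cyp26b1 fell (-0.99, SE 0.11), as did Ntsr1 and Dkk3, while Crim1, a regulator found in corticospinal neurons, rose (0.47, SE 0.06) and so did the sulfotransferase Hs3st2 (0.60, SE 0.10). The regulators Bcl11b (0.04, adjusted p = 0.76), Tbr1 (0.04, adjusted p = 0.79) and Fezf2 (0.21, adjusted p = 0.094) did not pass, although Fezf2 passed without Het replicate 3 (adjusted p = 0.015) and without the filter on low counts (adjusted p = 0.013). Deep-layer projection neuron genes called higher numbered 4 without KO replicate 1, KO replicate 2 or Het replicate 2.

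Subplate genes, which mark early-born neurons beneath the cortical plate, were higher in 8 of 19 cases (42.1%) and lower in 3, with a median of 0.23. Besides Cplx3, Trh and Abca8a they included the netrin receptor Unc5c, at 34.8, 33.9 and 26.2 CPM in the Het libraries and 60.8, 63.2 and 57.9 CPM in the KO libraries (0.94, SE 0.09), the actin bundler Pls3 (0.69, SE 0.07), the cadherin Cdh18 (0.94, SE 0.13), the neurexophilin Nxph4 (0.58, SE 0.09) and Moxd1 (0.78, SE 0.19). The orphan nuclear receptor Nr4a2, often used to mark this layer, went down from 73.5 to 43.04 CPM (-0.77, SE 0.09), and the GABA receptor subunit Gabra5 fell too (-0.51, SE 0.07).

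Among 47 area and hippocampal patterning genes, 13 were lower and 8 higher (median -0.14). Id2, Nts, Dkk3 and Cyp26b1 led the falls, together with Fibcd1, a receptor gene of hippocampal CA1 neurons (-0.94, SE 0.12). Meis2, a homeobox factor, rose from 249 to 386 CPM (0.63, SE 0.05). Cortical area and hippocampal patterning genes called higher numbered 4 without KO replicate 1 or Het replicate 2 and 5 without KO replicate 2 or Het replicate 1.

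Cell cycle genes that passed the test were nearly all higher in KO. Of 54 mitosis genes 26 rose (48.1%, beside 8.3% of all tested genes) and 0 fell, with a median of 0.40. Top2a, the topoisomerase of dividing cells, was counted at 57.02, 56.7 and 55.02 CPM in the Het libraries and 79.5, 76.3 and 84.5 CPM in the KO libraries (log2 fold change 0.51, SE 0.07, adjusted p = 4.1e-05). The spindle assembly factor Tpx2 was at 25.3, 23.4 and 23.2 CPM in the Het libraries and 33.2, 35.1 and 36.95 CPM in the KO libraries (0.55, SE 0.07). Cyclin genes Ccna2 (0.55, SE 0.08) and Ccnb2 (0.67, SE 0.12) and the kinesin Kif22 (0.70, SE 0.11) rose by similar amounts, and most changes of this list were below 1.5-fold. The proliferation marker Mki67 did not pass (0.23, adjusted p = 0.41). Mitosis genes called higher numbered 15 without Het replicate 2.

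Of 47 DNA replication genes 10 rose (21.3%) and 1 fell, with a median of 0.18. The DNA ligase Lig1 (0.40, SE 0.08), the helicase subunit Mcm5 (0.40, SE 0.08) and the ribonucleotide reductase subunit Rrm2 (0.36, SE 0.07; 11.98% of its 31-base words shared with other genes) rose, whereas the helicase subunit Mcm6 fell (-0.50, SE 0.10). In the list of genes that slow or end the cycle, which also holds G1 cyclins and kinases, 13 of 27 rose (48.1%) and 0 fell (median 0.28). They included the antiproliferative genes Btg1 (0.50, SE 0.07) and Tob2 (0.79, SE 0.12), and the kinase inhibitors Cdkn1b (0.37, SE 0.06) and Cdkn2c (0.62, SE 0.10). DNA replication genes called higher numbered 6 without KO replicate 2 or Het replicate 2. Cell cycle exit genes called lower numbered 1 without WT replicate 1.

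Intermediate progenitors divide away from the ventricle and give rise to neurons. Of 22 of their genes 6 rose (27.3%) and 3 fell (median 0.11). Neurog2, the proneural partner of E proteins in cortical progenitors, was counted at 29.3, 23.6 and 24.1 CPM in the Het libraries and 63.7, 59.9 and 61.9 CPM in the KO libraries (log2 fold change 1.27, SE 0.09, adjusted p = 1.2e-07), and the WT libraries held 6.59, 5.34 and 4.82 CPM, the lowest of the 3 genotypes. Neurod1, which acts after Neurog2, was at 48.2, 46.5 and 44.4 CPM in the Het libraries and 95.95, 94.98 and 97.7 CPM in the KO libraries (1.05, SE 0.09); it shares 6.56% of its 31-base words with other genes. Mfng, a glycosyltransferase that modifies Notch, rose (0.53, SE 0.09), and so did the zinc finger factor Insm1 (0.45, SE 0.09) and Gadd45g (0.50, SE 0.12). Rprm, a cell cycle arrest gene, had the smallest p of the falls, from 168 to 118 CPM (-0.51, SE 0.08). Eomes, the defining factor of these cells, was called higher (0.54, adjusted p = 0.015), but not without Het replicate 1 (adjusted p = 0.065) or Het replicate 2 (adjusted p = 0.069).

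Radial glia, the stem cells of the cortex, had 8 of 30 genes higher (26.7%) and 2 lower (median 0.11). Pax6 was counted at 26.9, 24.7 and 28.9 CPM in the Het libraries and 37.2, 38.9 and 38.2 CPM in the KO libraries (0.51, SE 0.07). Sox2 (0.42, SE 0.06) and Emx2 (0.53, SE 0.11), factors of these cells, rose too. The receptor phosphatase Ptprz1 fell (-0.43, SE 0.06), and the intermediate filament gene Nes did not pass (0.04, adjusted p = 0.72). In the list of neuronal and other bHLH genes, 10 of 35 rose and 4 fell (median 0.10). The Myc antagonist Mxi1 rose (0.63, SE 0.08), while Npas2, a clock-related factor, fell (-0.75, SE 0.11). Neurod2 did not pass (0.02, adjusted p = 0.87). Radial glia genes called higher numbered 4 without KO replicate 1, KO replicate 2 or Het replicate 2. Radial glia genes called lower numbered 1 without KO replicate 2 or Het replicate 2. Neuronal bHLH genes called lower numbered 2 without KO replicate 1 or KO replicate 2.

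Notch signalling keeps progenitors from differentiating. Its genes rose in 6 of 33 cases (18.2%) and fell in 1. The ones called higher were the glycosyltransferases Mfng and Lfng (0.33, SE 0.10), the co-activators Maml2 (0.56, SE 0.10) and Maml3 (0.39, SE 0.10), the target Hes5 (0.49, SE 0.16) and the feedback gene Nrarp (0.41, SE 0.07). The Hes5 call was lost without each KO or Het library in turn (adjusted p from 0.053 to 0.21), the Lfng call without each of them but Het replicate 3 (adjusted p from 0.057 to 0.16), and the Maml3 call without KO replicate 1, KO replicate 2 or Het replicate 2 (adjusted p from 0.055 to 0.066). POU and Sox factors rose in 8 of 23 cases (34.8%) and fell in 2, with a median of 0.26. Pou3f4 (0.73, SE 0.12) and Sox6 (0.50, SE 0.07) were among those that rose. Notch pathway genes called higher numbered 3 without KO replicate 1, KO replicate 2 or Het replicate 2. Notch pathway genes called lower numbered 2 without Het replicate 1. Pou3f and Sox genes called higher numbered 5 without KO replicate 1 or KO replicate 2. Pou3f and Sox genes called lower numbered 1 without KO replicate 1, KO replicate 2, KO replicate 3, Het replicate 2 or WT replicate 3.

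**Figure D3:**
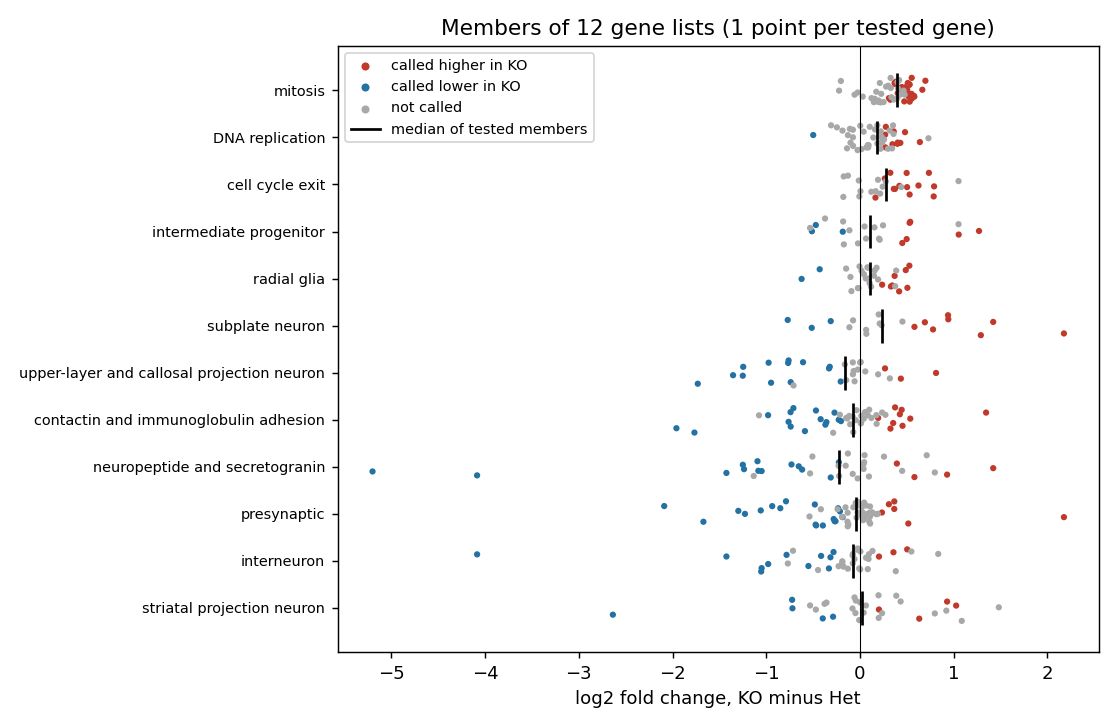
Log2 fold change of KO minus Het (x axis) for each tested member of 12 gene lists, coloured by call, with the median of the tested members as a black bar. Members of the mitosis list lie mostly to the right, with a median of 0.40, and the upper-layer list has its longer tail on the left, with a median of -0.16.

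Adhesion genes changed in both directions. Of 47 contactins and other immunoglobulin-type adhesion genes, 15 fell (31.9%, beside 8.44% of all tested genes) and 9 rose. Their summed level was 6444 to 6468 CPM in KO and 7193 to 7468 CPM in Het. That sum includes Cntn2, with a mean of 189.1 CPM in KO and 734.9 CPM in Het. After Cntn2, the family members Cntn1 (-0.59, SE 0.07) and Cntn4 (-0.98, SE 0.13) and the synaptic adhesion gene Cadm2 (-0.71, SE 0.07) fell. Dscaml1, a homophilic adhesion gene, rose (0.54, SE 0.05). Mdga1, a GPI-anchored protein of upper-layer neurons, fell from 158 to 94.8 CPM (-0.74, SE 0.08). Contactin and immunoglobulin adhesion genes called higher numbered 5 without KO replicate 2 or Het replicate 3.

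Cadherins and nonclustered protocadherins, which sort neurons by homophilic contact, fell in 13 of 36 cases (36.1%) and rose in 8. Pcdh9 was counted at 59.1, 59.99 and 58.3 CPM in the Het libraries and 32.1, 33.4 and 33.6 CPM in the KO libraries (-0.84, SE 0.06). Cdh11 (-0.76, SE 0.07), Cdh12 (-0.98, SE 0.11) and Pcdh1 (-0.53, SE 0.05) fell, and Pcdh10 (0.40, SE 0.06) rose. More extracellular matrix genes fell than rose: 15 of 52 fell (28.8%) and 4 rose, with a median of -0.16. Fibronectin (Fn1) went from 88.5 to 40.3 CPM (-1.14, SE 0.12), and the laminin chains Lamb1 (-0.67, SE 0.07) and Lama1 (-0.79, SE 0.13) and the perineuronal proteoglycan Bcan (-0.54, SE 0.06) fell with it. Cadherin and nonclustered protocadherin genes called higher numbered 4 without KO replicate 3 or Het replicate 1 and 5 without KO replicate 1. Collagen and matrix genes called higher numbered 2 without KO replicate 2, KO replicate 3 or Het replicate 1.

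Semaphorins, plexins and neuropilins fell in 7 of 31 cases (22.6%) and rose in 1. Sema7a, a membrane-anchored semaphorin, was counted at 187, 180.2 and 177 CPM in the Het libraries and 99.5, 101 and 99.1 CPM in the KO libraries (-0.86, SE 0.06), and the receptor Plxna2 (-0.50, SE 0.06) and the ligand Sema6d (-0.47, SE 0.07) fell. The ephrin, Slit-Robo and netrin list had 11 of 39 genes higher (28.2%) and 9 lower (23.1%). Robo1, the Slit receptor, was counted at 299.8, 297 and 305 CPM in the Het libraries and 464, 502 and 503 CPM in the KO libraries (log2 fold change 0.70, SE 0.06, adjusted p = 6.0e-07). The membrane ligand Efnb1 rose (0.47, SE 0.06), and the receptor Epha6 (-0.97, SE 0.13) and the kinase-dead receptor Ephb6 (-0.55, SE 0.09) fell. Semaphorin and plexin genes called higher numbered 2 without Het replicate 1, WT replicate 1 or WT replicate 3 and 4 without Het replicate 3. Ephrin, Slit-Robo and netrin genes called higher numbered 7 without KO replicate 2.

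Wnt pathway genes were called in similar numbers each way. They were higher in 9 of 65 cases (13.8%) and lower in 8 (12.3%), beside 8.3% and 8.44% of all tested genes. The ligand Wnt7b was counted at 193, 184 and 163 CPM in the Het libraries and 87.8, 79.5 and 88.8 CPM in the KO libraries (log2 fold change -1.08, SE 0.07, adjusted p = 1.2e-07). Its fall was 2.11-fold, and the WT libraries were at 130.1, 149 and 152 CPM. The Wnt inhibitor Apcdd1 fell (-0.51, SE 0.05), whereas the receptor Fzd2 (0.65, SE 0.08) and the feedback target Axin2 (0.47, SE 0.09) rose. Wnt pathway genes called higher numbered 4 without KO replicate 3 or Het replicate 2. Wnt pathway genes called lower numbered 4 without KO replicate 2 and 5 without Het replicate 3.

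BMP, activin and TGF-beta genes were higher in 8 and lower in 7 of 49 cases (16.3% and 14.3%). Besides Fst, the ligand Gdf10 fell, with 27.8, 28.2 and 28.2 CPM in the Het libraries and 8.23, 7.502 and 9.56 CPM in the KO libraries (-1.73, SE 0.09). Inhba, which encodes the activin A subunit that follistatin binds, fell from 17.2 to 8.87 CPM (-0.95, SE 0.13). The TGF-beta receptor Tgfbr2 fell too (-0.85, SE 0.11), and the intracellular BMP inhibitor Smad6 rose (1.22, SE 0.22). BMP, activin and TGF-beta genes called higher numbered 4 without KO replicate 1, KO replicate 2 or Het replicate 2 and 5 without KO replicate 3.

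Genes of FGF receptors and the feedback on ERK signalling fell in 5 of 32 cases (15.6%) and rose in 2 (6.25%). The shares of all tested genes were 8.44% and 8.3%. Besides Dusp5 the falls included the ETS factor Etv5 (-0.78, SE 0.07; 30.3% of its 31-base words shared), the Ras pathway inhibitor Spred3 (-0.61, SE 0.08) and the ligand Fgf9 (-0.97, SE 0.15). Retinoid genes had 5 higher and 5 lower of 20. Crabp1, a retinoic acid binding protein, was counted at 2.05, 2.50 and 1.66 CPM in the Het libraries and 0.279, 0.419 and 0.299 CPM in the KO libraries (log2 fold change -2.64, SE 0.23, adjusted p = 4.4e-07), and at 30.2, 30.7 and 33.7 CPM in WT, whose summed striatal list, which includes Crabp1, was also higher. Cyp26b1 and Dhrs3, which lower retinoic acid and retinal, fell (-0.99 and -1.08), as did the synthesizing enzyme Aldh1a3 (-2.02, SE 0.29). On the log2(FPKM + 1) scale the difference was -1.35 for Crabp1 and -0.87 for Aldh1a3. The corepressor Nrip1 rose from 91.6 to 168 CPM (0.87, SE 0.08). FGF receptor and ERK feedback genes called higher numbered 1 without KO replicate 1, KO replicate 2 or Het replicate 2. Retinoid genes called higher numbered 1 without KO replicate 1 or KO replicate 2, 2 without Het replicate 2 and 3 without Het replicate 1 or Het replicate 3.

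More synaptic genes fell than rose. Of 58 presynaptic genes 18 fell (31%) and 6 rose (median -0.04), and their summed level was 7407 to 7734 CPM in KO against 7859 to 8256 CPM in Het. Syt4, a synaptotagmin of dense-core vesicles, was counted at 354, 366 and 316 CPM in the Het libraries and 165, 165 and 168 CPM in the KO libraries (log2 fold change -1.06, SE 0.06, adjusted p = 3.4e-09). Slc17a7, which loads glutamate into vesicles of cortical neurons, was at 108, 108 and 107 CPM in the Het libraries and 64.7, 66.2 and 56.7 CPM in the KO libraries (-0.79, SE 0.06), with 215, 216 and 207 CPM in WT. Syt6 (-1.30, SE 0.09) and the synapse organiser Cbln1 (-0.94, SE 0.07) fell, and the complexin Cplx2 fell from 617 to 446 CPM (-0.47, SE 0.05).

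Glutamate receptor and postsynaptic genes fell in 13 of 53 cases (24.5%) and rose in 3. The postsynaptic scaffold Baiap2 (-0.84, SE 0.08), the kainate receptor subunit Grik3 (-0.60, SE 0.06), the metabotropic receptor Grm2 (-0.61, SE 0.07) and the kainate receptor partner Neto2 (-0.54, SE 0.07) had the smallest p among them. GABA and glycine receptor and transporter genes rose in 2 (8.33%, beside 8.3% of all tested genes) and fell in 9 of 24 cases (37.5%). Glra2, the glycine receptor subunit of the embryonic cortex, went the other way and rose 2.05-fold, with 83.9, 97.9 and 84.4 CPM in the Het libraries and 177, 186 and 183 CPM in the KO libraries (log2 fold change 1.04, SE 0.06, adjusted p = 6.4e-09). Falls included the GABA transporter Slc6a11 (-0.56, SE 0.06) and the receptor subunit Gabrb1 (-0.45, SE 0.08). Glutamate receptor and postsynaptic genes called lower numbered 8 without KO replicate 2. GABA receptor and transporter genes called lower numbered 5 without KO replicate 1 or Het replicate 2. Those called higher numbered 1 without KO replicate 2, KO replicate 3, Het replicate 1, Het replicate 2, Het replicate 3 or WT replicate 3.

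Potassium channel genes fell in 13 of 64 cases (20.3%) and rose in 8 (median -0.17). After Kcna1, Kcnip2, a Kv4 channel partner, fell (-0.90, SE 0.09), and so did Kcnh1 (-1.56, SE 0.17; -0.70 on the log2(FPKM + 1) scale), while the M-current subunit Kcnq5 (0.71, SE 0.06) and the beta subunit Kcnab1 (0.84, SE 0.08) rose. Sodium, calcium and HCN channel genes fell in 7 of 30 cases (23.3%) and rose in 1 (3.33%), beside 8.44% and 8.3% of all genes. Cacna2d3 (-0.35, SE 0.07) and Cacna1i (-0.36, SE 0.08) were the falls with the smallest p. Neuronal cytoskeleton genes fell in 5 of 36 cases (13.9%) and rose in 2 (5.56%), beside the same shares of all genes. The neurofilament genes Nefl, at 53.3, 67.5 and 53.2 CPM in the Het libraries and 21.4, 18.6 and 20.8 CPM in the KO libraries (-1.51, SE 0.12), and Nefm, at 121, 124 and 128 CPM in the Het libraries and 59.7, 59.9 and 57.01 CPM in the KO libraries (-1.08, SE 0.07), stood out, and they are neighbours that overlap on opposite strands. Sodium, calcium and HCN channel genes called lower numbered 3 without KO replicate 1 and 4 without Het replicate 3. Sodium, calcium and HCN channel genes called higher numbered 0 without KO replicate 1, KO replicate 2, KO replicate 3, Het replicate 1, Het replicate 2 or WT replicate 3 and 2 without Het replicate 3, WT replicate 1 or WT replicate 2. Neuronal cytoskeleton genes called lower numbered 3 without KO replicate 1 or KO replicate 2. Neuronal cytoskeleton genes called higher numbered 1 without KO replicate 1, KO replicate 2 or Het replicate 1 and 4 without WT replicate 1.

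Neuropeptide and secretogranin genes fell in 13 of 35 cases (37.1%) and rose in 4, with a median of -0.22. Besides Nts, the prohormone convertase Pcsk2 was counted at 45.8, 46.9 and 43.3 CPM in the Het libraries and 21.1, 20.8 and 22.3 CPM in the KO libraries (-1.08, SE 0.07). The neurexophilin Nxph1 (-1.42, SE 0.13), the nociceptin precursor Pnoc (-1.25, SE 0.18), the cholecystokinin precursor Cck (-0.62, SE 0.10) and the growth factor-induced peptide precursor Vgf (-1.09, SE 0.14) fell. Vip, the vasoactive intestinal peptide gene, had only 3, 11 and 9 counts in Het and 1, 0 and 0 in KO. Genes of peptide, monoamine and acetylcholine receptors fell in 16 of 56 cases (28.6%) and rose in 6. The adrenergic receptor Adra2c (-1.17, SE 0.10) and the nicotinic subunit Chrna7 (-0.82, SE 0.12) fell. Neuropeptide and monoamine receptor genes called higher numbered 3 without KO replicate 1 or Het replicate 3.

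**Figure D4:**
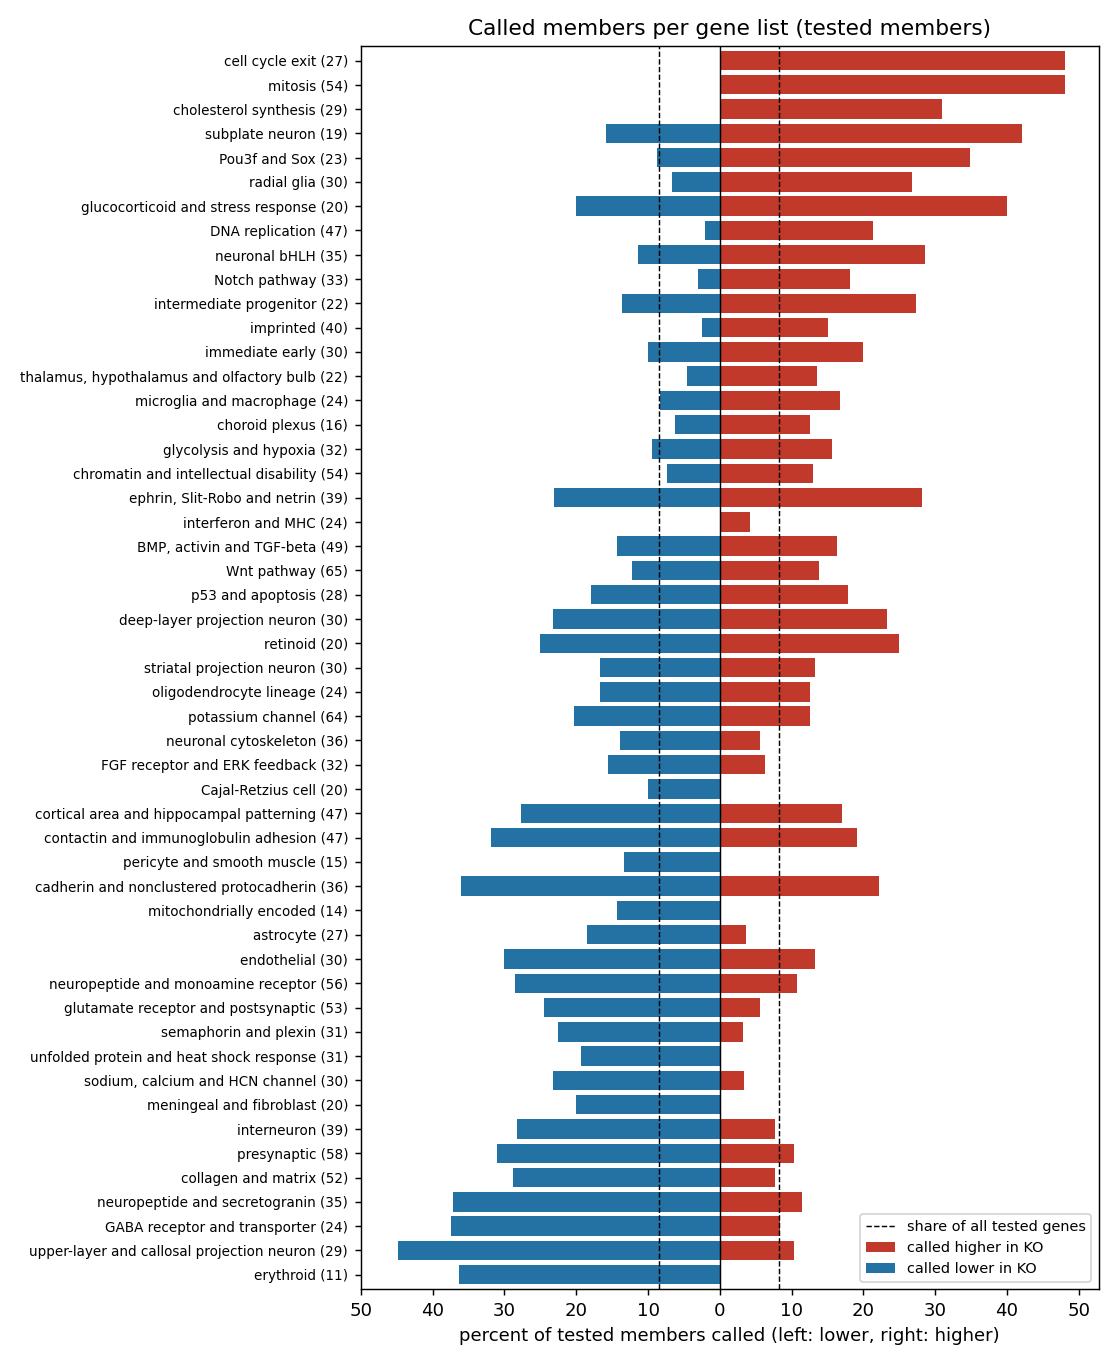
Percent of the tested members of each gene list called higher (red, to the right) or lower in KO (blue, to the left), for lists with at least 10 tested members, whose number is in brackets. Dashed lines mark the shares over all tested genes, 8.3% higher and 8.44% lower, and the mitosis and cell cycle exit lists have 48.1% and 48.1% higher and none lower.

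Markers of cells that arrive from or lie ventral to the dissected region gave a mixed picture. Interneuron genes fell in 11 of 39 cases (28.2%) and rose in 3, and their summed level was 2051 to 2128 CPM in KO and 2336 to 2482 CPM in Het. The synaptic protein Elfn1 fell from 27.7 to 13.3 CPM (-1.05, SE 0.09). The defining genes Gad1 (-0.08, adjusted p = 0.78), Lhx6 (0.00, adjusted p = 0.98), Dlx1 (-0.08, adjusted p = 0.34) and Dlx2 (0.00, adjusted p = 0.99) did not pass. Striatal genes fell in 5 (16.7%) and rose in 4 (13.3%) of 30 cases (median 0.02), beside 8.44% and 8.3% of all tested genes. Their summed level was 1241 to 1256 CPM in KO and 1107 to 1176 CPM in Het. The phosphatase inhibitor Ppp1r1b fell (-0.72, SE 0.07). The part of tissue composition in the results above was not tested. Interneuron genes called higher numbered 1 without KO replicate 1 or KO replicate 2. Striatal projection neuron genes called lower numbered 3 without KO replicate 1 or KO replicate 2. Striatal projection neuron genes called higher numbered 2 without KO replicate 1 or KO replicate 2.

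Cajal-Retzius genes, of the earliest cortical neurons, fell in 2 of 20 cases (10%, beside 8.44% of all tested genes) and rose in 0. Reln, the secreted signal of these cells, was called lower (-0.28, adjusted p = 0.034), but the KO and Het libraries overlapped, and the call was lost without Het replicate 2 or 3, KO replicate 1 or 3 or WT replicate 3 (adjusted p from 0.051 to 0.11) and when only the 6 KO and Het libraries were fitted (adjusted p = 0.057). The other was Ebf2, at under 1 CPM, whose call was lost without KO replicate 1, KO replicate 3 or Het replicate 2 (adjusted p from 0.066 to 0.16) and with limma on log2(FPKM + 1) (-0.16, adjusted p = 0.22). Of 22 genes in the mixed thalamus, hypothalamus and olfactory bulb list, 3 were higher (13.6%) and 1 lower (4.55%). The shares of all tested genes were 8.3% and 8.44%. Trh, Eomes and the nuclear receptor Rora (0.58, SE 0.11) were higher and Reln lower. Cajal-Retzius cell genes called lower numbered 0 without KO replicate 1, KO replicate 3 or Het replicate 2 and 1 without Het replicate 3 or WT replicate 3. Cajal-Retzius cell genes called higher numbered 1 without Het replicate 2 or WT replicate 3 and 2 without WT replicate 1. Thalamus, hypothalamus and olfactory bulb genes called lower numbered 0 without KO replicate 1 or Het replicate 2, 2 without WT replicate 1 or WT replicate 3 and 3 without WT replicate 2.

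Calls among glial genes are to be read beside the 8.3% higher and 8.44% lower of all tested genes. Astrocyte genes fell in 5 of 27 cases (18.5%) and rose in 1, with a summed level of 2832 to 2978 CPM in KO and 2851 to 3035 CPM in Het. Bcan had the smallest p among them. Oligodendrocyte lineage genes fell in 4 and rose in 3 of 24 cases (16.7% and 12.5%), with the precursor receptor Gpr17 lower (-0.96, SE 0.17) and the lineage factor Olig2 higher (0.51, SE 0.08). Microglia and macrophage genes rose in 4 of 24 cases (16.7%) and fell in 2 (8.33%), with a summed level of 120.4 to 131 CPM in KO and 113 to 116 CPM in Het. Mrc1, a receptor of border macrophages, fell from 1.86 to 0.713 CPM (-1.39, SE 0.23), or -0.40 on the log2(FPKM + 1) scale. The complement gene C1qa (0.38, SE 0.10), the protease gene Ctss (0.56, SE 0.15) and Fcrls (0.54, SE 0.15) were called higher, and each call was lost without KO replicate 2 (adjusted p from 0.054 to 0.073), those of Ctss and Fcrls also without KO replicate 1 (adjusted p = 0.12 and 0.095), that of Ctss without Het replicate 2 (adjusted p = 0.105) and that of Fcrls without Het replicate 3 (adjusted p = 0.079). Astrocyte genes called lower numbered 2 without KO replicate 2 and 3 without Het replicate 2 or Het replicate 3. Astrocyte genes called higher numbered 2 without WT replicate 2. Oligodendrocyte lineage genes called higher numbered 1 without KO replicate 1 or KO replicate 2. Microglia and macrophage genes called higher numbered 0 without KO replicate 2, 1 without KO replicate 1 and 2 without Het replicate 2. Microglia and macrophage genes called lower numbered 1 without KO replicate 2, KO replicate 3, Het replicate 1, Het replicate 2 or Het replicate 3.

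Endothelial genes fell in 9 of 30 cases (30%) and rose in 4, with a summed level of 1028 to 1075 CPM in KO and 1085 to 1145 CPM in Het. The endothelial factor Erg (-0.91, SE 0.14) and the junction gene Esam (-0.49, SE 0.09) fell. Apln, the apelin precursor of sprouting vessels, rose from 7.03 to 15.7 CPM (1.16, SE 0.10), and the glucose transporter Slc2a1 from 60.6 to 95.02 CPM (0.65, SE 0.09). Pericyte and smooth muscle genes fell in 2 of 15 cases (13.3%), beside 8.44% of all tested genes. Meningeal and fibroblast genes fell in 4 of 20 (20%) and erythroid genes in 4 of 11 (36.4%), with none higher in these 3 lists. The erythroid falls included the transferrin receptor Tfrc (-0.90, SE 0.15), and no globin gene was among them. Choroid plexus genes rose in 2 and fell in 1 of 16 (12.5% and 6.25%, beside 8.3% and 8.44% of all tested genes), and Ttr, their defining marker, varied within groups, with 4, 209 and 454 counts in Het and 662, 662 and 209 in KO. Endothelial genes called lower numbered 4 without KO replicate 1. Endothelial genes called higher numbered 2 without KO replicate 1 or KO replicate 2. Pericyte and smooth muscle genes called lower numbered 0 without KO replicate 1 and 1 without KO replicate 2, KO replicate 3 or Het replicate 2. Meningeal and fibroblast genes called lower numbered 2 without KO replicate 1, KO replicate 2, KO replicate 3, Het replicate 1 or Het replicate 2. Erythroid genes called lower numbered 2 without KO replicate 2, Het replicate 1 or Het replicate 3. Choroid plexus genes called higher numbered 1 without Het replicate 1 and 4 without WT replicate 1. Choroid plexus genes called lower numbered 2 without WT replicate 1.

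Stress and metabolic genes moved in small groups. In the glucocorticoid and stress response list 8 of 20 rose (40%) and 4 fell. Ddit4, an mTOR inhibitor induced by stress, was counted at 129.7, 119 and 126 CPM in the Het libraries and 244, 246 and 183 CPM in the KO libraries (0.84, SE 0.11). The metallothioneins Mt1 (-0.46, SE 0.07) and Mt2 (-0.44, SE 0.08) fell. Immediate early genes rose in 6 and fell in 3 of 30 cases (20% and 10%), beside 8.3% and 8.44% of all genes. Maff, Jund (0.47, SE 0.07) and Jun (1.08, SE 0.17) were higher, while Fos (-0.07, adjusted p = 0.99) and Egr1 (-0.45, adjusted p = 0.84) did not pass. Glucocorticoid and stress response genes called higher numbered 5 without KO replicate 1, KO replicate 2 or Het replicate 2.

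Cholesterol synthesis and supply genes rose in 9 of 29 cases (31%) and fell in 0, with a median of 0.10. Insig1, a partner of the sterol sensor, was counted at 72.2, 65.8 and 70.4 CPM in the Het libraries and 105, 108 and 108 CPM in the KO libraries (log2 fold change 0.62, SE 0.06, adjusted p = 1.5e-06). The sterol carrier Stard4 (0.49, SE 0.08) and the exporter Abcg1 (0.78, SE 0.12) rose, and the rises of synthesis enzymes were smaller, such as Msmo1 (0.41, SE 0.07). Glycolysis and hypoxia genes rose in 5 and fell in 3 of 32 (15.6% and 9.38%), beside 8.3% and 8.44% of all genes. Ndrg1 was lower (-0.57, SE 0.06) and Egln3 higher (0.43, SE 0.08). Glycolysis and hypoxia genes called higher numbered 2 without KO replicate 1 and 3 without KO replicate 2 or Het replicate 2. Glycolysis and hypoxia genes called lower numbered 1 without KO replicate 1 or KO replicate 2.

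The unfolded protein and heat shock list had 6 of 31 lower and 0 higher. Sesn2, a stress-induced mTOR regulator, fell from 10.03 to 4.25 CPM (-1.23, SE 0.21), and asparagine synthetase (Asns) fell by less (-0.32, SE 0.07). Atf4, a factor known to induce several of these genes, had a value of -0.43 (adjusted p = 0.38). The p53 and apoptosis list had 5 higher and 5 lower of 28 (17.9% each), beside 8.3% and 8.44% of all tested genes. The proapoptotic gene Bbc3 rose (0.65, SE 0.08), whereas Bcl2l11 of the same list was called lower (-0.405, adjusted p = 0.015). The Bcl2l11 call was lost without KO replicate 1, KO replicate 2, Het replicate 2 or Het replicate 3 (adjusted p from 0.05 to 0.066). Unfolded protein and heat shock response genes called lower numbered 2 without KO replicate 1 or KO replicate 2 and 3 without KO replicate 3. Listed p53 and apoptosis genes called higher numbered 2 without KO replicate 1, KO replicate 2 or Het replicate 3 and 3 without Het replicate 2 or WT replicate 1. Listed p53 and apoptosis genes called lower numbered 1 without KO replicate 1 or Het replicate 2, 2 without KO replicate 2 and 3 without Het replicate 3.

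Of the remaining lists, mitochondrially encoded genes fell in 2 of 14 cases (14.3%, beside 8.44% of all tested genes) and rose in 0. The leading one, mt-Nd2 (-0.34, SE 0.07), shares 13.5% of its 31-base words with other genes and is uncertain. Chromatin genes tied to intellectual disability rose in 7 and fell in 4 of 54 (13% and 7.41%), beside 8.3% and 8.44% of all genes. Imprinted genes rose in 6 and fell in 1 of 40 (15% and 2.5%). Nnat (0.43, SE 0.07) and Grb10 (0.36, SE 0.06) were higher and Igf2 lower (-1.01, SE 0.14, with 61.9% of its words shared). Interferon and MHC genes had 1 call in 24, Ifi27 (1.05, SE 0.19). Of the control list of sex-linked genes, Hprt was the 1 gene called. Mitochondrially encoded genes called lower numbered 1 without KO replicate 1, KO replicate 3, Het replicate 1 or Het replicate 3 and 4 without Het replicate 2. Chromatin and intellectual disability genes called higher numbered 4 without Het replicate 3. Chromatin and intellectual disability genes called lower numbered 2 without KO replicate 1 or KO replicate 2 and 7 without Het replicate 2. Imprinted genes called lower numbered 2 without KO replicate 3 or WT replicate 1. Interferon and MHC genes called higher numbered 2 without Het replicate 1.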

How the data were processed

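RNA was extracted from snap-frozen newborn dorsal telencephalon and made into NEBNext Ultra libraries, per the labels' protocols. The authors deposited a gene table of raw counts and another of FPKM, each with the 9 libraries as columns. The submitters' processing notes name HTSeq 0.6.1, DESeq 1.10.1, TopHat2 2.0.9, Bowtie2 2.0.6 and the build mm10, without the role of each. The handling of multi-mapping reads and of strand is not stated in the sources used here. Of 41128 gene IDs, 40254 matched GENCODE M21 (mm10), which gave symbols and positions.

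The counts were analysed with edgeR 4.0.16 in R 4.3.3: filterByExpr over genotypes (minimum count 10, minimum total count 15), TMM factors, and the robust quasi-likelihood test with a coefficient for each genotype, fitted to the 9 libraries together (6 residual degrees of freedom). Calls are KO minus Het at a Benjamini-Hochberg adjusted p below 0.05 over 15271 genes. SE is the log2 fold change divided by the square root of F, and CPM uses TMM-scaled library sizes. Genes were named by a rule: Tcf4, the 15 largest folds in each direction (called, mean log2 CPM of at least 1, no overlap of groups, under 5% of 31-base words shared with other genes, no unnamed gene model), and up to 4 called members of each list by p. Part of them are printed, some genes are not reported here, and other named genes were chosen after their values were seen. Members and lists were chosen with earlier results of these data known, so lists are given as counts and medians, with no set test. The procedure was run on counts simulated from the fitted means and spread of these libraries, which checks the code and not the calls. Alternatives used DESeq2 1.42.0, limma 3.58.1 on log2(FPKM + 1), other scaling, filters and thresholds, a replicate block and leaving out each library. Figures used Python 3.11.15 and matplotlib 3.10.9.

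The following named genes have an annotated antisense neighbour that overlaps them, whose reads cannot be told apart without strand: Adgrg6, Axin2, Cacna2d3, Cadm2, Cbln1, Ccna2, Cdh12, Cdh18, Crim1, Cux2, Deptor, Dlx1, Dscaml1, Dusp5, Ebf2, Elfn1, Emilin2, Emx2, Eomes, Epha6, Ephx4, Fgf9, Fn1, Fst, Gabra5, Gabrb1, Gad1, Gpr17, Grm2, Hes5, Hs3st2, Htr1b, Id4, Igf2, Inhba, Jun, Jund, Kcnab1, Kcnh1, Kcnq5, Kif22, Kirrel, Lig1, Maml2, Maml3, Mdga1, Mki67, Mt2, Mxi1, Ndrg1, Nefl, Nefm, Neto2, Neurod1, Nkx2-1, Nnat, Npas2, Nrarp, Pax6, Pcdh1, Pcdh10, Pcdh9, Pcsk2, Pou3f1, Ppp1r1b, Reln, Robo1, Rora, Sema6d, Slc2a1, Slc6a11, Sox6, Spred3, Syt4, Syt6, Tcf12, Tmem255a, Tob2, Top2a, Txnip, Unc5c, Wnt7b.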

Additional observations from a re-analysis of the deposited data

How the results depend on the processing

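The count of 2556 calls stayed within 1.5 times under other scaling, filters, DESeq2 (2568), limma on log2(FPKM + 1) (2216), only the 6 KO and Het libraries (2445) and only genes sharing under 5% of words (2404). Of the 2556 genes, 94.2% were also called by DESeq2 and 89.5% with only the KO and Het libraries, and 0 changed direction. An adjusted p under 0.01 left 1241 calls, 607 higher and 634 lower, and a change of at least 1.5-fold left 735, 303 higher and 432 lower. Leaving out 1 library gave 1432 to 2561 calls, 688 to 1273 higher and 738 to 1312 lower. Without KO replicate 1, 56.4% of the calls were found again, and without KO replicate 2, 55.2%, against 78% without KO replicate 3 and 63.8% to 80.9% without a Het library. Fitting only the KO and Het libraries without KO replicate 3, an alternative chosen after seeing the data, gave 2180 calls. Same-numbered KO and Het libraries had deviations correlated at 0.032, -0.038 and 0.044, so the numbers are not shown to pair the samples. With the replicate block there were 2166 calls, or 1981 in the 6 libraries. Tcf4 passed the threshold at -0.22 without a filter (adjusted p = 0.038), at -0.23 with only the KO and Het libraries, at -0.23 with the replicate block in them (adjusted p = 0.04), and had values from -0.31 to -0.14 without 1 library. Among list counts recomputed, 1850 stayed within 1.5 times and 270 did not. Among named genes that did not pass, the sign of the log2 fold change depended on the setting for 9. Bcl11b had -0.025 to 0.088 without 1 library. Dlx2 had -0.046 to 0.072 without 1 library, -0.001 with RLE factors and with DESeq2, -0.008 with upper-quartile factors, -0.01 with 1 CPM in 3 libraries, -0.011 with limma on log2(FPKM + 1), -0.009 with only KO and Het libraries and with replicate block, only KO and Het libraries, -0.017 with only KO and Het libraries, without KO replicate 3. Fos had -0.384 to 0.469 without 1 library, 0.005 with limma on log2(FPKM + 1), 0.206 with only KO and Het libraries, without KO replicate 3. Gad1 had -0.154 to 0.038 without 1 library. Lhx6 had -0.058 to 0.068 without 1 library, 0 with RLE factors and with DESeq2, -0.008 with upper-quartile factors, -0.009 with 1 CPM in 3 libraries, -0.006 with limma on log2(FPKM + 1), -0.007 with only KO and Het libraries, -0.004 with replicate block, only KO and Het libraries, -0.019 with only KO and Het libraries, without KO replicate 3. Nes had -0.032 to 0.118 without 1 library. Neurod2 had -0.033 to 0.044 without 1 library. Nkx2-1 had -0.144 to 0.117 without 1 library. Tbr1 had -0.018 to 0.069 without 1 library.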
